A study of Mus musculus with 8 samples.

Results

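Histone genes were followed in RNA sequencing libraries of immature myeloid cells (IMCs), the cells that M-CSF expands from mouse bone marrow. Of the 24062 genes in the table, 84 had a symbol of a replication-dependent (cluster) histone gene or of a variant histone gene, H2afx being left aside, and 18 of them had at least 10 counts in at least 2 of the 8 libraries. These 18 members were 9 of 68 cluster genes and 9 of 16 variant genes.

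Filtered bone marrow cells were kept in M-CSF (40 ng per mL) for 3 days, and they came from the marrow of C57BL/6 mice aged 2 months. From each culture, 4 µg of total RNA treated with DNase went into the library. PARP1CKO cells carried floxed PARP1 alleles and lysozyme-Cre, which deletes in the myeloid lineage, and PARP2CKO cells carried floxed PARP2 alleles and the same Cre. PARP1 WT and PARP2 WT were littermate controls of the respective line, with floxed alleles and no Cre, so every group carried floxed alleles. Each group had 2 libraries, described as biological duplicates, and whether each came from 1 animal or a pool is not stated in the sources used here. The question was whether loss of PARP1 or PARP2, enzymes that attach ADP-ribose to chromatin proteins, was accompanied by another level of histone RNA.

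Library totals ran from 37852450 to 61845125 counts on genes. Monocyte and macrophage markers summed to between 4961 and 5782 CPM (counts scaled to the library size) and neutrophil markers to between 2735 and 3495 CPM, so the label of myeloid cells was met. B cell markers summed to between 30.3 and 44.5 CPM in the PARP1 line and to between 8.31 and 11.6 CPM in the PARP2 line. Parp1 had 202 and 211 CPM in PARP1 WT beside 63.2 and 59.1 CPM in PARP1CKO, and Parp2 had 48.2 and 48.3 CPM in PARP2 WT beside 25.7 and 25.6 CPM in PARP2CKO, so both targeted genes were lower in the libraries labelled as their knockouts (adjusted p = 0.0134 and 0.000139, edgeR's quasi-likelihood test). Both kept part of their level.

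Nucleosomes are built of H2A, H2B, H3 and H4, and linker histone H1 binds the DNA between them. Replication-dependent histone genes lie in clusters, are transcribed mainly in S phase when new DNA must be packed, and their messages normally end after a conserved stem-loop, without a poly(A) tail. The stem-loop is bound by SLBP, and U7 snRNP with a cleavage complex cuts the RNA behind it. Variant histones are made throughout the cell cycle from ordinary polyadenylated messages and replace the cluster histones at particular places in chromatin. Some cluster genes can also give polyadenylated messages that read past the stem-loop.

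The stem-loop of the 6 cluster members that hold it is shown because it is the sequence at which messages of this kind are normally ended. It was searched as the histone stem-loop consensus, a pair of stem sides with complementary fixed letters around a T-rich loop. Some positions were left free and were not checked for pairing. The sequences shown were found on the transcript strand in the 3′ untranslated stretch of the longest coding transcript of each gene (GENCODE M21, GRCm38). Capitals mark the match.
Hist1h1c: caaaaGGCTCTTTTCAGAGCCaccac
Hist1h1d: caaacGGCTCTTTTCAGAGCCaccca
Hist3h2a: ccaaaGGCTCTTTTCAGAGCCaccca
Hist1h2be: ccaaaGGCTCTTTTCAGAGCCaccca
Hist1h2bg: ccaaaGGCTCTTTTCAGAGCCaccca
Hist1h4i: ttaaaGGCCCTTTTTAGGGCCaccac

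The letters occurred in 6 of the 9 cluster members and in 37 of the 58 other cluster genes with a coding transcript. They occurred in 0 of the 9 variant members and in 1 of the 6 other variant genes (H2bfm). Outside the histone symbols they occurred in 25, or 0.115%, of 21795 coding genes. These counts covered the whole longest coding transcript, and the cluster counts were the same in the 3′ untranslated stretch alone. Hist1h2af had an annotated 3′ untranslated stretch of 1 base, and 13 of the other cluster genes had none. Absence of the letters there says nothing of the gene. In the 6 members the match began between base 25 and base 42 of the 3′ untranslated stretch. In all 6 members the annotated transcript went on for at least 100 bases behind it, from 155 bases in Hist1h2bg and 330 in Hist1h4i to 1861 in Hist1h2be and 4884 in Hist1h1d. Of the 59 cluster genes that were not members, 37 held the letters, and 16 of these 37 had a transcript annotated so far. The median annotated 3′ untranslated length was 880 bases in the cluster members and 89 in the other cluster genes, with the 13 that had none included.

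The poly(A) signal AATAAA, which directs cleavage and tailing of ordinary messages, is shown for the 4 most abundant cluster members, in capitals, with its surrounding bases.
Hist1h1c: gtatgcttctAATAAAaagcgtttag
Hist1h2bc: atgtatatatAATAAAtgtcatgtaa
Hist2h2be: tattattattAATAAAgttaccgatt
Hist3h2a: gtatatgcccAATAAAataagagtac
AATAAA was present in 6 of the 9 cluster members, 4 of which also held the stem-loop with at least 100 bases behind it, in 13 of the 59 other cluster genes and in 8 of the 9 variant members. In Hist1h1c, Hist2h2be and Hist3h2a it lay 26, 22 and 34 bases from the annotated end, and in Hist1h2bc, Hist1h1d and Hist1h2be 447, 203 and 697 bases from it. The annotated transcripts of Hist1h2bc and Hist2h2be did not hold the stem-loop letters, which says nothing of other transcripts of these genes. Because the rule for members used counts, these sequence counts describe the genes that had counts and are not a test.

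The cluster genes as a whole took almost no counts. All 68 symbols together had between 1231 and 2128 counts in a library, or between 0.00272% and 0.00371% of it, of which the 59 genes that were not members gave between 39 and 100. Of these 59 genes, 15 had no count in any library and none had more than 10 counts in any library. The 9 variant members took between 0.151% and 0.168% of each library.

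**Figure D1:**
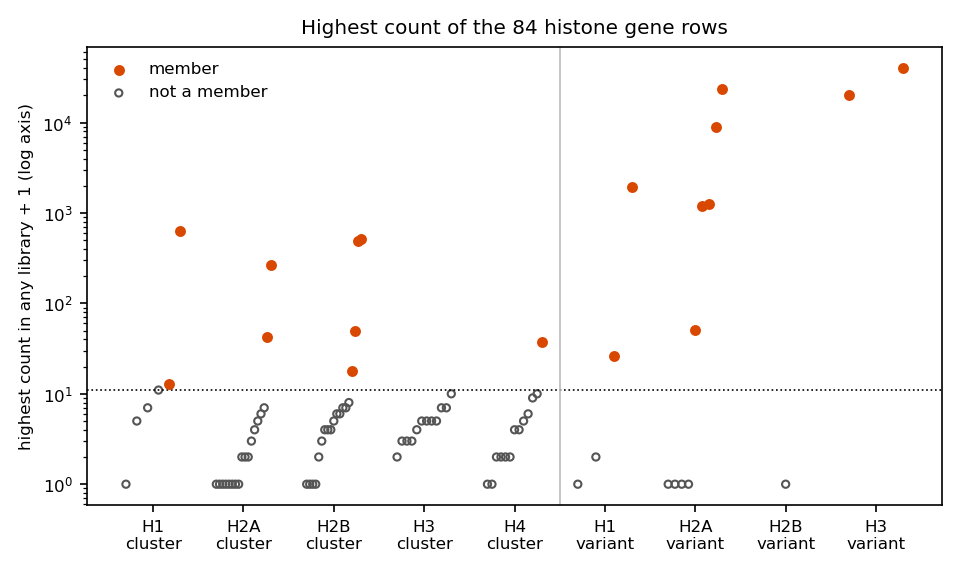
The highest count of each of the 84 histone gene rows in any library, plus 1, on a log axis by histone family, with members filled, other rows open and the dotted line at a count of 10. Cluster genes other than members reach at most 10 counts, and the highest variant, H3f3b, reaches 40380.

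The gap was widest in the H3 family. None of the 12 cluster H3 genes was a member, and the 2 libraries of PARP1 WT held 16 and 24 of their counts, those of PARP1CKO 16 and 23, those of PARP2 WT 26 and 25 and those of PARP2CKO 31 and 11. H3f3a and H3f3b, which both encode the replacement H3 variant, together had between 41693 and 59822 counts in the same libraries. For H4, which has no variant gene among the symbols, 1 of 13 genes was a member, Hist1h4i. For H1, H2A and H2B, 2 of 6, 2 of 18 and 4 of 19 cluster genes were members.

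The threshold fell in a continuum of low counts. Hist1h1d, the member nearest to it, had between 4 and 12 counts and reached 10 in 2 libraries. Just outside it, Hist1h1b had between 2 and 10 counts, Hist1h3d between 4 and 9, and Hist1h4d between 2 and 9.

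Shared sequence among histone copies can lower a count when reads that fit several genes are dropped, so the share of 75-base windows of each gene found in no other annotated transcript was computed. Non-histone genes that overlap the same locus were left aside, so windows shared with them counted as unique. Hist3h2a, for example, shares 708 exon bases with Trim17. Among the cluster genes that were not members, 33 of 59 had at least 50% unique windows. The rule set these 59 genes apart by their low counts, so those counts are no test of what shared sequence does. Hist1h1a, Hist1h1b and Hist2h2bb were 100% unique and had at most 4, 10 and 6 counts. The cluster members ranged from 29.5% unique windows in Hist1h2af to 100% in Hist2h2be, with a median of 85.7%. Values of Hist1h2af, Hist1h2bg (52.6%) and Hist1h2bc (72.9%) may therefore include or lack reads of copies, and H2afz was the least unique variant at 71.2%.

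**Figure D2:**
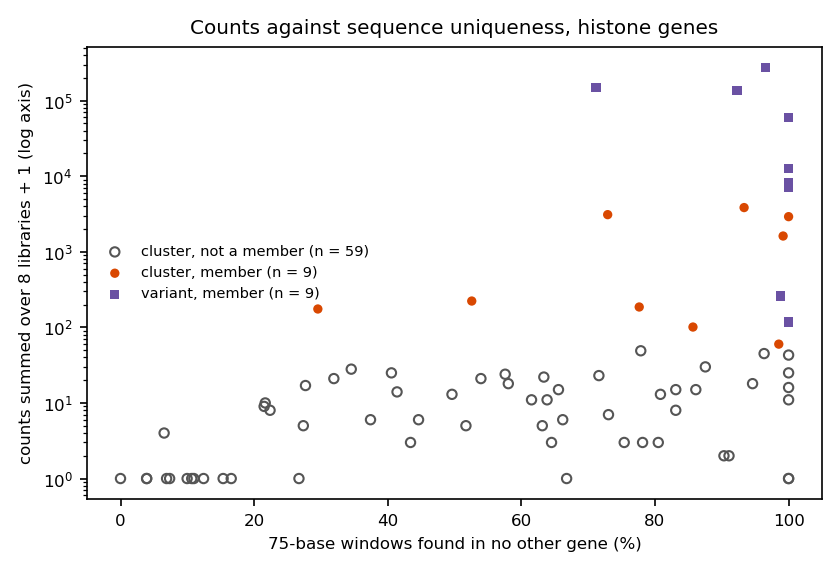
Counts summed over the 8 libraries, plus 1, on a log axis, against the percentage of 75-base windows found in no other annotated transcript, for 68 cluster genes and 9 variant members. Windows shared with a non-histone gene overlapping the same locus count as unique. Open circles are the 59 cluster genes that the rule left out for low counts, so their height is fixed by the rule, and they spread along the x axis up to 100%. Hist1h2af at 29.5% is the member farthest to the left.

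The low cluster counts stood beside high levels of genes that are active when cells divide. Pcna, the sliding clamp of DNA polymerases, had between 490.3 and 577 CPM, and Mki67, a marker of cycling cells, between 696 and 826 CPM. A list of 33 S phase genes summed to between 2829 and 2990 CPM and a list of 25 mitotic genes to between 2698 and 3063 CPM. Slbp, which encodes the stem-loop binding protein, had between 57.0 and 63.5 CPM, and Npat, the activator of cluster histone genes, between 1389 and 1978 counts.

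Other RNAs without a poly(A) tail, and long nuclear RNAs, had very different counts in these libraries, which were labelled as total RNA. Rn45s, the ribosomal precursor RNA, had between 7349 and 16734 counts. Rpph1, the RNA of ribonuclease P, had between 22 and 464 counts, and Rmrp, the RNA of a related enzyme, had 499 counts in PARP2 WT replicate 1 and between 2 and 38 in the other libraries. Terc, the telomerase RNA, had at most 2 counts, and Rnu11 and Rnu12, RNAs of the minor spliceosome, had at most 4 and 1. Rnu73b, a small nucleolar RNA, had between 7 and 19 counts. Malat1 and Neat1, long nuclear RNAs, had between 27010 and 42895 counts. How far library chemistry, size selection, mapping or the annotation set the low cluster counts was not tested.

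Hist1h2bc, Hist2h2be and Hist1h2bg lay head to head with an H2A gene, so that an H2A and an H2B gene start close to each other and share a promoter region, and Hist3h2a lay head to head with Hist3h2bb-ps, which is annotated as an H2B pseudogene. Only 1 side of each pair had counts above 10. The pairs were looked up from the members, so 1 side had counts by the rule, and this is no test of a shared promoter. Annotated exon lengths of member and partner also differed, at 1156 and 2482 bases for Hist1h2bc and 618 and 704 for Hist1h2bg. They were 2620 and 520 bases for Hist2h2be and 2146 and 465 for Hist3h2a. Hist1h2bc had between 310 and 512 counts and Hist1h2ac, 251 bases away, at most 1. Hist2h2be had between 247 and 491 counts and Hist2h2ac, 239 bases away, at most 1. Hist3h2a had between 97 and 264 counts beside at most 4 of Hist3h2bb-ps at 173 bases, and Hist1h2bg had between 8 and 49 beside at most 5 of Hist1h2ae at 176 bases. Most of the partners' sequence was unique, at 90.3% of the 75-base windows of Hist1h2ac, 80.5% of Hist2h2ac, 80.8% of Hist3h2bb-ps and 65.6% of Hist1h2ae.

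Promoter windows are shown for the region shared by Hist2h2ac and Hist2h2be, for Hist1h2bg, whose window holds the region between it and Hist1h2ae, and for H3f3b, the variant with the most counts, to set paired cluster genes and a variant side by side. They run from 250 bases before to 50 after the annotated start (RefSeq, GRCm38.p6), 5′ to 3′ on the strand of the gene named, and capitals mark the CCAAT box, the TATA box as TATAAA, the octamer as ATTTGCAT and the element AAACACA, each on either strand.
Hist2h2ac, chr3:96220831-96221130, minus strand: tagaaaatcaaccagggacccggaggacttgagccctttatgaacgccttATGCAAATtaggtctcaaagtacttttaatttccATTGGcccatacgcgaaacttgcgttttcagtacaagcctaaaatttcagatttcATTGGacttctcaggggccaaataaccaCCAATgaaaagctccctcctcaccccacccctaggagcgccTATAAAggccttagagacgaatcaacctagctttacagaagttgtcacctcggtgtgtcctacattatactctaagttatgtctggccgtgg
Hist1h2bg, chr13:23571150-23571449, plus strand: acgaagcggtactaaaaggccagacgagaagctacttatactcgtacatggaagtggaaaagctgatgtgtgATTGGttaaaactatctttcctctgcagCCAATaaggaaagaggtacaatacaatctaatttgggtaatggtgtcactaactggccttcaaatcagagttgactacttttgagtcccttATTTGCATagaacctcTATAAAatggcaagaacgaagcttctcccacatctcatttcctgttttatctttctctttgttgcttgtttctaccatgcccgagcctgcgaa
H3f3b, chr11:116024455-116024754, minus strand: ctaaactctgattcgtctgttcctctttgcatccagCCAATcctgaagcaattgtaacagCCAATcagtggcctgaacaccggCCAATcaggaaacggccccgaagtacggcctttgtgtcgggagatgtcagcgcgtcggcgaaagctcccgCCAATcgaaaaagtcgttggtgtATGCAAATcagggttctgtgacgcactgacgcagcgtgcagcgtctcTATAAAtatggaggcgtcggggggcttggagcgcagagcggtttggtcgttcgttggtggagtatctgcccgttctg

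CCAAT was found in 7 of 8 promoters of 7 cluster members, in 47 of 55 promoters of the other cluster genes, in 6 of 9 variant promoters and in 37.4% of all 32851 promoters in the table. ATTTGCAT, the octamer that Oct1 binds in H2B promoters, was found in 3 of 8, 11 of 55, 1 of 9 and 1.74% of them, and TATAAA in 3 of 8, 32 of 55, 1 of 9 and 13.6%. AAACACA was found in 2 of 8, 7 of 55, 1 of 9 and 7.18%. A match of letters does not show that a factor bound, and Hist1h2bc and Hist2h2be had no promoter entry matched to their own symbol. No hits of different motifs overlapped in the 78 histone promoters matched.

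Among the members, the variants led the order of level. Per kilobase of annotated exon, H2afz, the H2A variant found at gene starts, had 347 ± 16.8 CPM (SD over 8 libraries) and H3f3b had 272 ± 14.9. H3f3a followed with 112 ± 2.60 and H2afy, the macroH2A gene that marks silent chromatin, with 69.1 ± 2.91. H1f0, a linker histone known from resting and differentiating cells, had 15.5 ± 1.34, H2afv, the second H2A.Z gene, 12.6 ± 1.16, and H2afj, an H2A variant of mammals, 9.58 ± 1.64.

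The highest cluster genes came after these 7 variants. Hist1h2bc (chr13:23684199-23692908) had 6.66 ± 0.832 CPM per kilobase and the linker histone gene Hist1h1c (chr13:23738808-23740367) had 6.10 ± 0.763, which lay within each other's spread. Hist2h2be (chr3:96221119-96223738) had 2.77 ± 0.424 and Hist3h2a (chr11:58954685-58956830) 1.85 ± 0.321. The other 5 cluster members, Hist1h2af, Hist1h2bg, Hist1h4i, Hist1h2be and Hist1h1d, had between 0.0200 and 1.06, and the variants H2afy2, the second macroH2A gene, and H1fx, a linker histone variant, had 0.287 ± 0.126 and 0.234 ± 0.0759. The order depended on the length used, since per kilobase of coding sequence H3f3b came first with 1661 CPM and H2afz second with 959.

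**Figure D3:**
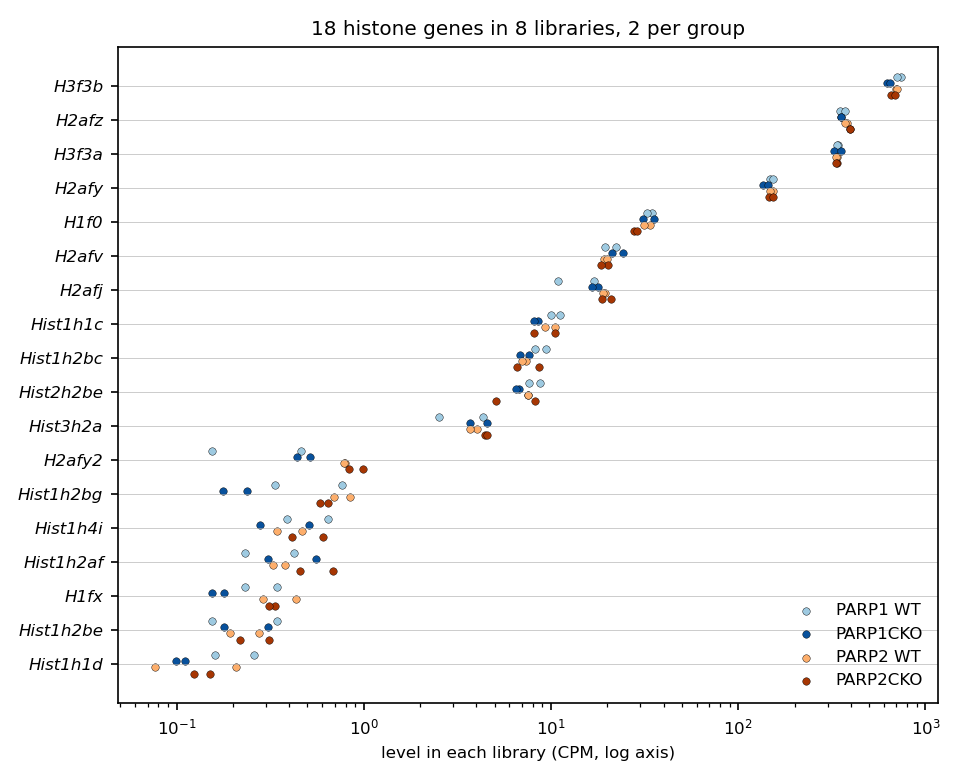
Level of each of the 18 histone genes in each of the 8 libraries in CPM on a log axis, with 2 points per group. The variants H3f3b, H2afz, H3f3a and H2afy stand highest, and the points of the 7 genes below 1 CPM scatter most.

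Abundant members varied little between libraries. The coefficient of variation over the 8 libraries was 2.32% for H3f3a, 4.22% for H2afy, 4.85% for H2afz and 5.50% for H3f3b. It lay between 12.5% and 17.3% for Hist1h2bc, Hist1h1c, Hist2h2be and Hist3h2a, and between 27.6% and 47.1% for the members below 1 CPM.

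Exons of 9 members overlap exons of another annotated gene, and the use of strand in counting is not given in the sources used here. H2afy2 shares 233 bases with Aifm2 on the other strand, which had between 824 and 1412 counts, so the 6 to 50 counts of H2afy2 are uncertain. Hist1h2be shares 496 bases with Hist1h1e (1 to 6 counts), Hist3h2a shares 708 with Trim17 (0 to 5 counts) and H1fx shares 213 with Gm5577 (7 to 13 counts).

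In PARP1CKO IMCs 12 of the 18 members had a lower and 6 a higher fitted level than in PARP1 WT, and none passed. Of all 13197 genes tested, 14 (0.106%) passed an adjusted p of 0.05 in edgeR's quasi-likelihood test, and of the 18 members 0 did. At an unadjusted p under 0.05 there were 4 members, H3f3b, Hist1h2bg, Hist1h1c and H2afy, all with lower values, beside 11.3% of all genes in either direction, 5.15% with lower and 6.11% with higher values. With edgeR's likelihood-ratio test 0 members passed beside 1.11% of all genes, and with DESeq2 1 did, H3f3b, beside 0.652%. In 8 members both PARP1CKO libraries lay below both PARP1 WT libraries and in 0 both lay above, where 20.2% of all genes lay below and 21% above, or 41.2% in one direction or the other. A comparison of 2 libraries with 2 allows no exact two-sided p below 0.333 for a single value.

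H3f3b (chr11:116021912-116027962) had 739 and 709 CPM in PARP1 WT beside 622 and 648 CPM in PARP1CKO. The groups did not overlap, and the log2 fold change was -0.19 ± 0.0453 (SE), with an adjusted p of 0.241 in edgeR's quasi-likelihood test and of 0.0247 with DESeq2, over a range of 0.0247 to 0.508 across the alternatives. Its sister gene H3f3a, which encodes the same protein, had 339 and 335 CPM in PARP1 WT beside 325 and 352 CPM in PARP1CKO. Those groups overlapped, with a log2 fold change of 0.01 and a 95% interval from -0.10 to 0.11.

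Among the cluster members, Hist1h2bg (chr13:23571396-23572013) had 13 and 38 counts in PARP1 WT beside 12 and 8 in PARP1CKO, which was 0.336 and 0.766 CPM against 0.238 and 0.177. The log2 fold change was -1.43 with a 95% interval from -2.43 to -0.43 and an adjusted p of 0.300 in edgeR's test, and without PARP1 WT replicate 2 it was -0.68. Hist1h1c had 10.0 and 11.2 CPM in PARP1 WT beside 8.54 and 8.10 CPM in PARP1CKO, a log2 fold change of -0.35 (adjusted p = 0.381, edgeR). Hist1h2bc had 8.24 and 9.37 CPM against 7.61 and 6.86, and Hist2h2be had 8.68 and 7.62 CPM against 6.76 and 6.53, log2 fold changes of -0.29 in both genes. Each of these 4 genes was lower in both PARP1CKO libraries, and none passed the test.

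Hist3h2a had values in the other direction, with 2.51 and 4.33 CPM in PARP1 WT beside 3.69 and 4.58 CPM in PARP1CKO (log2 fold change 0.25, 95% interval -0.26 to 0.76). PARP1 WT replicate 1 was the lowest of the 8 libraries here, and without it the log2 fold change was -0.07. Hist1h2af, Hist1h2be, Hist1h4i and Hist1h1d had log2 fold changes of 0.37, -0.10, -0.44 and -0.95, each with an interval across 0 from counts of 5 to 32 in these libraries.

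Among the other variants, H2afy had 148 and 154 CPM in PARP1 WT beside 135 and 144 CPM in PARP1CKO, a log2 fold change of -0.11 (adjusted p = 0.441, edgeR), which was -0.06 without PARP1CKO replicate 1. H2afz, H2afv and H1f0 had log2 fold changes of -0.03, 0.12 and -0.01 with intervals across 0. H2afj had 424 and 842 counts in PARP1 WT beside 896 and 751 in PARP1CKO, so that PARP1 WT replicate 1 alone stood low. H2afy2 had 6 and 23 counts in PARP1 WT, the first again from replicate 1, and 26 and 20 in PARP1CKO. Without that replicate the log2 fold changes were 0.02 for H2afj and 0.05 for H2afy2. H1fx had 9 and 17 counts in PARP1 WT beside 9 and 7 in PARP1CKO, with a log2 fold change of -0.80 (adjusted p = 0.497, edgeR), which was -0.47 without PARP1 WT replicate 2.

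**Figure D4:**
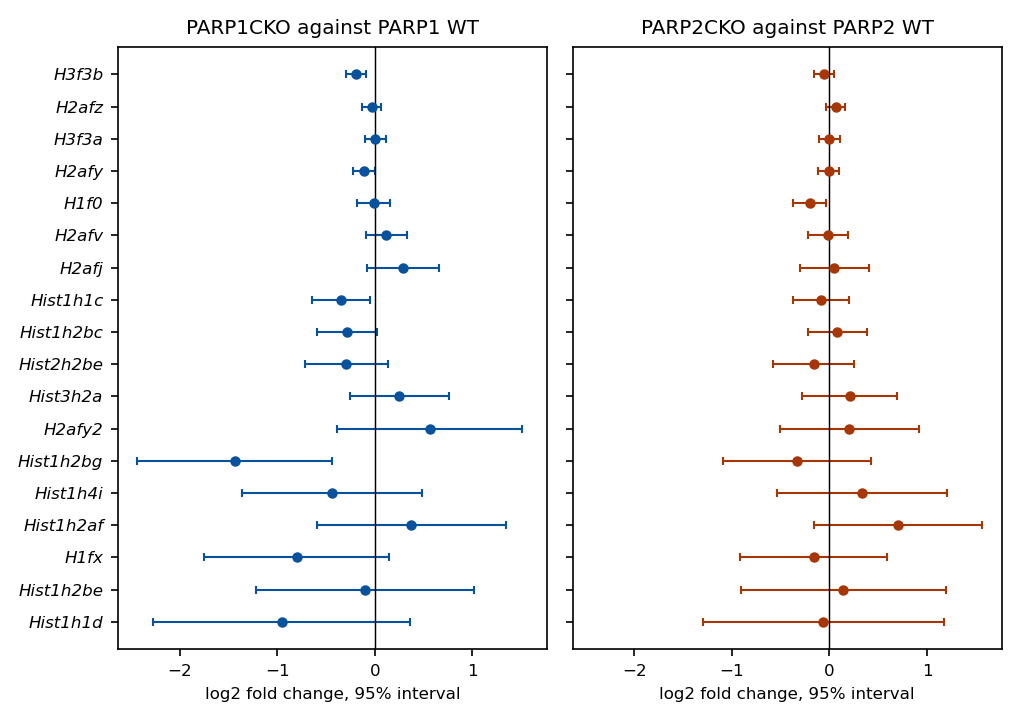
Log2 fold change with its 95% interval from edgeR's fit for the 18 histone genes, ordered by level in CPM, in PARP1CKO against PARP1 WT and in PARP2CKO against PARP2 WT. Intervals widen towards the low genes at the bottom, and those of H3f3b, H2afy, Hist1h1c and Hist1h2bg in PARP1CKO and of H1f0 in PARP2CKO do not reach 0.

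The median log2 fold change in PARP1CKO was -0.29 over the 9 cluster members and -0.01 over the 9 variants, beside 0.01 over all genes tested, and that of the cluster members was -0.19 without PARP1 WT replicate 2. The summed level of the cluster members was 30.8 and 34.8 CPM in PARP1 WT beside 28.0 and 27.5 CPM in PARP1CKO, and that of the variants was 1640.1 and 1643 against 1505 and 1576 CPM. Both sums were lower in both PARP1CKO libraries. In the variant sum H3f3b alone had 739 and 709 CPM in PARP1 WT against 622 and 648 CPM in PARP1CKO. Of the 9 variants, 5 were fitted lower and 4 higher. Of the long nuclear RNAs, Malat1 had 740 and 693 CPM in PARP1 WT against 555 and 597 CPM in PARP1CKO, and Neat1 699 and 778 CPM against 850 and 853. In the same libraries the 25 mitotic genes summed to 2975 and 3063 CPM in PARP1 WT and to 2869.9 and 2813 CPM in PARP1CKO, with 22 of 25 fitted lower, 10 of them at an unadjusted p under 0.05 (11.3% of all genes, 5.15% with lower values) and 0 past the adjusted threshold. Sums of the S phase genes overlapped, at 2918 and 2989 CPM against 2990.1 and 2829. Erythroid markers summed to 13.2 and 14.3 CPM in PARP1 WT beside 15.5 and 19.997 CPM in PARP1CKO, with 7 of 9 fitted higher, 2 of the 9 (Hba-a1 and Hba-a2, which have identical counts) at an unadjusted p under 0.05 (again beside 11.3%) and 0 called in edgeR's test. All 7 B cell markers and all 3 T and NK cell markers tested were also fitted higher, with 0 called. The part of cell division or of these cell types in the histone values was not tested, and in bulk RNA fewer cells of a type and less RNA per cell cannot be told apart.

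**Figure D5:**
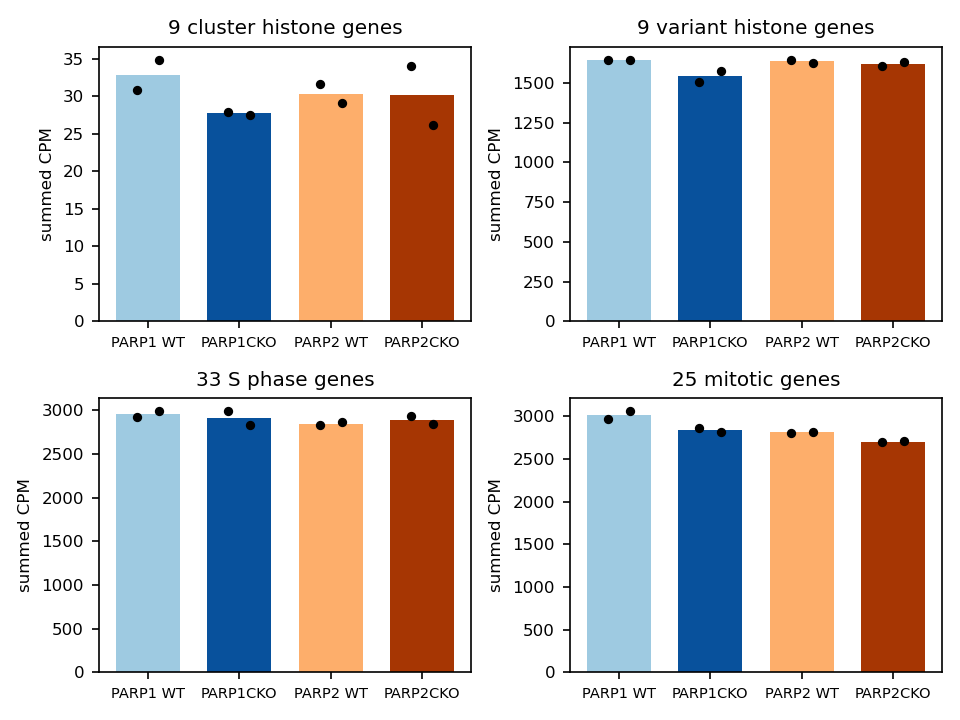
Summed level in CPM per library (points) and group mean (bars, from 0; 2 libraries per group) of the 9 cluster histone members, the 9 variant members, 33 S phase genes and 25 mitotic genes. The PARP1CKO points of the cluster members, 28.0 and 27.5 CPM, lie below both PARP1 WT points, and the PARP2CKO points, 34.0 and 26.2 CPM, lie on either side of the PARP2 WT points.

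In PARP2CKO IMCs the members were divided evenly, 9 with a higher and 9 with a lower fitted level than in PARP2 WT. Of all genes, 7 (0.053%) passed in edgeR's quasi-likelihood test, and of the 18 members 0 did, nor did any with the likelihood-ratio test (0.296% of all genes) or DESeq2 (0.205%). At an unadjusted p under 0.05 there was 1 member, H1f0, with lower values, beside 4.83% of all genes in either direction, 2.46% with lower and 2.36% with higher values. The groups did not overlap in 4 members with higher and 3 with lower values, where 18.4% of all genes were higher and 18.8% lower without overlap, 37.2% in all. The median log2 fold change was 0.08 over the cluster members and -0.01 over the variants, beside -0.00 over all genes. That of the cluster members had no stable sign, at 0.27 without PARP2 WT replicate 1 and -0.13 without PARP2CKO replicate 1. Among the markers of cell types, 9 of 10 for neutrophils, 7 of 7 for basophils and mast cells, 7 of 9 for erythroid cells and 3 of 3 for T and NK cells were fitted lower in PARP2CKO, with 3, 3, 2 and 0 at an unadjusted p under 0.05 (4.83% of all genes) and 0 called in edgeR's test. Summed levels were 3495 and 3261 CPM in PARP2 WT beside 3223 and 2826 CPM in PARP2CKO for neutrophil markers, and 32.99 and 29.8 CPM against 23.7 and 23.98 for basophil and mast cell markers, and neither overlapped. Monocyte and macrophage markers were fitted higher in 5 of 9 and lower in 4, with 3 at an unadjusted p under 0.05 and 0 called in edgeR's test. Their sums lay higher without overlap, between 5328 and 5515 CPM in PARP2 WT and between 5548 and 5782 CPM in PARP2CKO. The part of these cell types in the histone values was not tested.

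H1f0 (chr15:79028450-79030504) had 33.8 and 31.4 CPM in PARP2 WT beside 27.8 and 28.9 CPM in PARP2CKO (log2 fold change -0.20, SE 0.0746, adjusted p = 0.909 in edgeR's test). In the PARP1 line its groups overlapped, at 34.6 and 32.5 against 30.9 and 35.6 CPM. H2afz had 381 and 373 CPM in PARP2 WT beside 395 and 393 CPM in PARP2CKO, which did not overlap, with a log2 fold change of 0.06 and an interval from -0.03 to 0.16. H3f3b had 698 and 701 CPM against 658 and 687 (log2 fold change -0.06, interval -0.16 to 0.05). The interval of H1f0 ran from -0.37 to -0.03, and those of H2afz and H3f3b included 0. Without PARP2CKO replicate 1 the value of H3f3b was -0.03.

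The largest fitted value among the members in PARP2CKO was that of Hist1h2af, with 22 and 17 counts in PARP2 WT beside 41 and 22 in PARP2CKO (log2 fold change 0.70, interval -0.16 to 1.57), which was 0.36 without PARP2CKO replicate 1. It is the member with the least unique sequence. Hist3h2a had 4.05 and 3.71 CPM against 4.43 and 4.54, and Hist1h2bg 0.847 and 0.692 CPM against 0.587 and 0.642. The 3 abundant cluster genes overlapped between the groups, since PARP2CKO replicate 2 was the lowest of the 4 libraries and replicate 1 the highest. In these 2 libraries Hist1h1c had 10.5 and 8.08 CPM, Hist1h2bc 512 and 317 counts, and Hist2h2be 8.23 and 5.12 CPM, beside 10.5 and 9.28, 427 and 364 counts, and 7.50 and 7.54 CPM in PARP2 WT.

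The difference between the PARP2 and the PARP1 effect was tested directly. Of all genes 2 (0.0152%) passed, and of the 18 members 0 did in edgeR's quasi-likelihood test, in its likelihood-ratio test (0.546% of all genes) or with DESeq2 (0.341%). At an unadjusted p under 0.05 there was again no member, beside 7.69% of all genes. The difference was 0.13 for H3f3b (interval -0.01 to 0.28) and 0.37 for Hist1h2bc (interval -0.06 to 0.80) on the log2 scale, and for Hist1h2bg the interval ran from -0.16 to 2.36. No member was thus shown to respond differently to the loss of PARP1 and of PARP2.

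The fits set bounds on what could have been missed. The half-width of the 95% interval of the log2 fold change ran from 0.10 for H2afz to 1.31 for Hist1h1d in PARP1CKO, with a median of 0.40, and from 0.10 to 1.24 in PARP2CKO, with a median of 0.38. For H3f3a the interval in PARP2CKO ran from -0.10 to 0.10, and for H2afz from -0.03 to 0.16.

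The 2 control groups were also compared with each other, and they share their libraries with the comparisons above. Of all genes 417 (3.16%) passed and of the 18 members 0 did in edgeR's quasi-likelihood test. At an unadjusted p under 0.05 there were 2 members, H2afy2 and H2afj, both higher in PARP2 WT, beside 18.9% of all genes in either direction, 10.3% with higher and 8.63% with lower values, and with DESeq2 0 members passed beside 551 genes (4.18%) and with the likelihood-ratio test 1 did, H2afy2, beside 910 genes (6.9%). The groups did not overlap in 3 members with higher values in PARP2 WT (H2afj, H2afy2 and H2afz) and 3 with lower values (Hist1h2bc, Hist2h2be and H3f3b), where 26.7% of all genes were higher and 25.2% lower without overlap, 51.9% in all. H2afy2 (chr10:61738665-61784147) had 6 and 23 counts in PARP1 WT beside 46 and 41 in PARP2 WT, a log2 fold change of 1.28 with an interval from 0.42 to 2.15 (adjusted p = 0.119, edgeR). H2afj (chr6:136808244-136810074) had 424 and 842 counts against 1120 and 988, a log2 fold change of 0.45 (adjusted p = 0.182, edgeR). In both genes PARP1 WT replicate 1 was the lowest of the 8 libraries. When PARP1 WT replicate 2 was left out, the log2 fold changes were 2.33 for H2afy2 and 0.81 for H2afj. Without PARP1 WT replicate 1 they were 0.77 and 0.18. B cell markers differed between the lines as given above, with all 7 tested of 8 called lower in PARP2 WT. Of the other lists, basophil and mast cell markers were fitted lower in 7 of 7 (Kit called), erythroid markers in 8 of 9 (Hba-a1 and Hba-a2 called) and mitotic genes in 24 of 25 (Cenpe and Cenpf called). Granulocyte progenitor markers were fitted higher in 6 of 6 (Elane and Prtn3 called), and neutrophil markers were fitted higher in 4 of 10 and lower in 6, with Mmp9 and Retnlg called lower. The part of these cell types and of cell division in the histone values was not tested.

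The genes that make and use histone messages were read beside the members. Of 29 genes for histone transcription and 3′ end processing, 0 passed in either knockout comparison in edgeR's quasi-likelihood test (0.106% and 0.053% of all genes), and 2 in PARP1CKO and 1 in PARP2CKO had an unadjusted p under 0.05 (11.3% and 4.83% of all genes). Slbp had 57.4 and 57.0 CPM in PARP2 WT beside 60.9 and 63.5 CPM in PARP2CKO, which did not overlap (log2 fold change 0.12, adjusted p = 0.931, edgeR), and in the PARP1 line its log2 fold change was 0.03. Npat had log2 fold changes of -0.02 and -0.01 in PARP1CKO and PARP2CKO.

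Of 32 histone chaperones and deposition factors, which carry new histones to DNA, 0 passed in either comparison, with 7 in PARP1CKO and 1 in PARP2CKO at an unadjusted p under 0.05, where all genes gave 11.3% and 4.83%. In PARP1CKO 20 of the 32 had a lower fitted level, and their median log2 fold change was -0.02. Their summed level was 4609 and 4673 CPM in PARP1 WT beside 4440.1 and 4412 CPM in PARP1CKO, and the groups did not overlap. Of all single genes, 20.2% were lower without overlap in this comparison. A sum is weighted towards its most abundant genes and does not describe the whole list. Of the 33 S phase genes 0 passed in either comparison, with 3 in PARP1CKO and 1 in PARP2CKO at an unadjusted p under 0.05, beside the same shares of all genes, and medians of -0.02 and -0.01. Pcna had log2 fold changes of -0.02 and 0.10 and Mki67 of -0.07 and -0.07 in PARP1CKO and PARP2CKO, and none of the 4 passed. Of the 25 mitotic genes 0 passed in PARP2CKO, with 5 at an unadjusted p under 0.05 (4.83% of all genes), 20 fitted lower and a median of -0.06.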

How the data were processed

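The authors deposited unnormalized gene counts. They had trimmed single-end 75-base reads of stranded total RNA libraries, mapped them to mm10 with TopHat2 2.0.12, marked duplicates with Picard 1.127 and counted with featureCounts. Annotation, strand and the treatment of multi-mapping reads and duplicates are not given in the sources used here. Among the rows, 46 genes in 17 sets have counts identical to another gene (at least 50 counts), and how these arose was not tested. The members and lists were chosen with earlier results of these data known. All 8 libraries were fitted with a mean per group in edgeR 4.0.16 (R 4.3.3) by the quasi-likelihood test, with TMM factors, filterByExpr (13197 genes), Benjamini-Hochberg adjustment and a threshold of 0.05, and the script was tested on simulated data. DESeq2 1.42.0 was an alternative. CPM uses TMM library sizes. All variants, all called members, the 2 most abundant and most changed cluster genes per family, genes of other lists called in a knockout comparison, and Slbp, Npat, Pcna, Mki67, Parp1 and Parp2 were to be named. No other list gene was called in a knockout comparison. List genes called between the control groups, RNAs without a poly(A) tail, long nuclear RNAs, H2bfm and genes beside or overlapping members were named outside this rule, after their values were seen. Uniqueness was computed over GENCODE M21 transcripts in place of a genome, with pandas 2.3.3, and figures with matplotlib 3.10.9. Replicates differed by more than sampling noise (chi-square per gene 8.32 to 12.6). P-values measure the spread between these samples.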

Additional observations from a re-analysis of the deposited data

How the results depend on the processing

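In PARP1CKO, PARP2CKO and the difference between them, the number of the 18 members past the threshold stayed at 0 under DESeq2 size factors, library size only, the likelihood-ratio test, both filters on low counts and without each replicate, except for 1 member (H3f3b) with DESeq2 in PARP1CKO. Between the control groups it was 1 (H2afy2) with the likelihood-ratio test, beside 6.9% of all genes, and 2 (H2afj and H2afy2) without a filter, beside 4.97%. Leaving out PARP1 WT replicate 2 moved the log2 fold changes of H2afy2 and H2afj there to 2.33 and 0.81. The filter of 1 CPM in at least 2 libraries left H1fx, H2afy2, Hist1h1d, Hist1h2af, Hist1h2be, Hist1h2bg and Hist1h4i untested. Under that filter the counts therefore cover only the other members. The median of the variants in PARP2CKO was -0.034 with library size only. Leaving out a library moved that of the cluster genes between -0.43 and -0.19 in PARP1CKO and, with a change of sign, between -0.13 and 0.27 in PARP2CKO, and that of the variants in PARP2CKO between -0.027 and 0.016, and in PARP1CKO between -0.053 and 0.062. The summed cluster level in PARP1CKO was 27.3 CPM over the 8 members with at least 50% unique windows and 28.1 CPM with library size only.

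H3f3a in PARP2CKO had a log2 fold change of -0.026 with library size only, -0.00015 with only the 4 libraries of the comparison and -0.0014 without a filter. When a library was left out, log2 fold changes that changed sign ranged in PARP1CKO from -0.12 to 0.90 (Hist1h2af), -0.074 to 0.71 (Hist3h2a), -0.53 to 0.63 (Hist1h2be), -0.92 to 0.00039 (Hist1h4i), -0.12 to 0.089 (H1f0), -0.078 to 0.012 (H2afz) and -0.053 to 0.062 (H3f3a). In PARP2CKO they ranged from -0.29 to 0.089 (Hist1h1c), -0.57 to 0.83 (Hist1h1d), -0.13 to 0.25 (Hist1h2bc), -0.11 to 0.43 (Hist1h2be), -0.56 to 0.13 (Hist2h2be), -0.41 to 0.17 (H1fx), -0.030 to 0.13 (H2afj), -0.074 to 0.048 (H2afv), -0.043 to 0.025 (H2afy) and -0.013 to 0.013 (H3f3a). Other values kept their sign but moved by over 1.5 times relative to the main fit. In PARP1CKO these ranged from -1.29 to -0.62 (Hist1h1d), -1.87 to -0.68 (Hist1h2bg), -1.03 to -0.47 (H1fx), 0.016 to 0.65 (H2afj), 0.048 to 1.61 (H2afy2), 0.016 to 0.22 (H2afv) and -0.16 to -0.063 (H2afy). In PARP2CKO these ranged from 0.36 to 0.95 (Hist1h2af), 0.020 to 0.57 (Hist1h4i), -0.46 to -0.18 (Hist1h2bg), 0.082 to 0.33 (H2afy2) and -0.088 to -0.027 (H3f3b). With 1 sample left in a group, that sample was assumed to vary like the other groups. The cause of these shifts was not tested.

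Samples with the same replicate number correlated at -0.13 in the PARP1 line and 0.15 in the PARP2 line (deviations from the group means across genes), so the numbers were not taken as pairs. With the replicate block 0 members passed in each comparison. Of all genes, 0.106% passed there in PARP1CKO, 0.0455% in PARP2CKO, 0.0227% for the difference and 2.39% between the control groups. With the PARP1CKO numbers crossed, chosen after seeing the data, 0 members and 18 genes (0.136%) passed in PARP1CKO. The count of all genes called in PARP1CKO was 14 in the main test, 86 with DESeq2, 146 with the likelihood-ratio test and 101 without a filter, in PARP2CKO it was 7, 27, 39 and 26, and between the control groups 417, 551, 910 and 872 (of 17542 genes tested). Leaving out a library moved these counts between 1 (without PARP1 WT replicate 2) and 34 (without PARP1CKO replicate 1) in PARP1CKO, between 4 (without either PARP1 WT replicate) and 19 (without PARP2 WT replicate 1) in PARP2CKO, between 1 and 16 for the difference (2 in the main test), and between 85 (without PARP1 WT replicate 1) and 566 (without PARP1CKO replicate 2) between the control groups, with 146 and 167 without a PARP2 WT replicate. Members with fewer than 50 counts in a library limit the precision. Intervals rest on a spread pooled over all groups, with 2 libraries per group, and drawn towards that of other genes. They are not the spread of the 2 groups compared alone.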
